A study of Mus musculus with 20 samples.

Results

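Among the 8 hypothalamus libraries of control-fed mice in an ageing experiment, 4 held relatively many reads of short transcripts and 4 held relatively many reads of long ones. The 8 were drawn from a series of 20 libraries. The short-rich set was old control 3 and young controls 1, 2 and 3, and the long-rich set was old controls 1, 2 and 4 and young control 4. The other 12 libraries came from mice on a diet called Gly-Low, made to lower glycation, or from the controls of an acute diet experiment. All mice were male C57BL/6J, an inbred strain. Old control mice were 25 months of age and had been on the control diet for 5 months. Young control mice were 3 months of age and had been on it for 1 week. No library of either set had a Gly-Low diet, and each set held both ages (1 old and 3 young short-rich libraries, 3 old and 1 young long-rich libraries). RNA came from frozen hypothalamus, was selected on its poly-A tail and was made into libraries that do not keep the strand, so reads of overlapping genes on opposite strands cannot be told apart. Nothing in the labels ties each library to its own mouse, and p-values therefore measure only the spread between libraries, which may be technical.

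Poly-A selection keeps the 3′ end of a transcript together with whatever is still joined to it. In RNA that is whole, a long transcript yields reads along its full length. The number of reads then depends on transcript length and on how well each stretch is copied and amplified, which differs with its content of G and C. Mitochondrial transcripts, and those for ribosomal and respiratory chain proteins, are short and abundant in the brain, whereas transcripts for cytoskeletal, synaptic and chromatin proteins are often several times as long.

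The members were chosen by the readout itself, the relation of counts to transcript length, so every difference between the sets is given below as a description, with no test. The slope of a library is the change in its log2 CPM (counts scaled to library size), relative to the mean of the 8 libraries, for each doubling of transcript length, over 15221 genes. It was −0.22 in old control 3 and −0.10, −0.30 and −0.14 in young controls 1, 2 and 3, against 0.21, 0.06 and 0.20 in old controls 1, 2 and 4 and 0.30 in young control 4. Nearest the boundary lay young control 1 on the short-rich side and old control 2 on the long-rich side. Further values are given in the same order of libraries.

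Examples of sequence show how the genes that separate the sets are made up. The stretches below are coding sequence from GENCODE M21 transcripts on GRCm38, 5′ to 3′, with G and C in capitals. Rpl41, which encodes a very small ribosomal protein, is shown whole (78 bases, chr10:128548114-128549305, minus strand). The other lines each show 120 bases, chosen to match the GC content of the whole transcript: B3galt2, a galactosyltransferase, for a long transcript with little GC (chr1:143640664-143654614, plus strand), Sptan1 for a long transcript with more GC (chr2:29965560-30031451, plus strand), and Klc2, a kinesin light chain, for a shorter one rich in GC (chr19:5107746-5118560, minus strand).
Rpl41: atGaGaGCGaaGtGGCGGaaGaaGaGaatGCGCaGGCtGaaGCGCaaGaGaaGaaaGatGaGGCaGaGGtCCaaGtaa
B3galt2: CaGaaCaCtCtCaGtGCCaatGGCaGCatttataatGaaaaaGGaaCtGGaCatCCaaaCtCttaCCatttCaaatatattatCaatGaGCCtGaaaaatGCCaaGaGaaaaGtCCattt
Sptan1: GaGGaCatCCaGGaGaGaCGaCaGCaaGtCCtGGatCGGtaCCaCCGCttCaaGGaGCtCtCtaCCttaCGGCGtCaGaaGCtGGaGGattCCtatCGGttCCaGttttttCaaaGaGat
Klc2: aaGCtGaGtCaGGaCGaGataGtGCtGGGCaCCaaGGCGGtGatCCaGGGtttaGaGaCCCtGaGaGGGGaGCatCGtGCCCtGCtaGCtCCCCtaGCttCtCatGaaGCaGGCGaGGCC

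Whole-library measures split the same way as the slope. Genes of the mitochondrial genome took 15.8%, 12.9%, 17.2% and 13.7% of the counts in the short-rich libraries, against 6.69%, 8.14%, 5.54% and 5.73% in the long-rich libraries. Cytosolic ribosomal protein genes took 4.09%, 3.42%, 3.71% and 3.91% in the short-rich libraries, against 2.31%, 2.73%, 2.43% and 1.87% in the long-rich libraries. The ranges do not overlap for either share. Of the counts on nuclear genes, the shortest of 5 equal groups of genes by length took 19.2% to 21.5% in the short-rich libraries and 11.99% to 14.9% in the long-rich libraries, and the longest group took 17.4% to 19.5% in the short-rich libraries and 22.6% to 26.4% in the long-rich libraries. At an equal total of 15000000 counts, mitochondrial ones included, 18872 to 22391 genes would be detected in the short-rich libraries and 22031 to 23652 in the long-rich libraries, ranges that overlap through young control 1. Total counts do not separate the sets, at 15848372 to 27399753 in the short-rich libraries and 17955746 to 24557277 in the long-rich libraries.

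**Figure D1:**
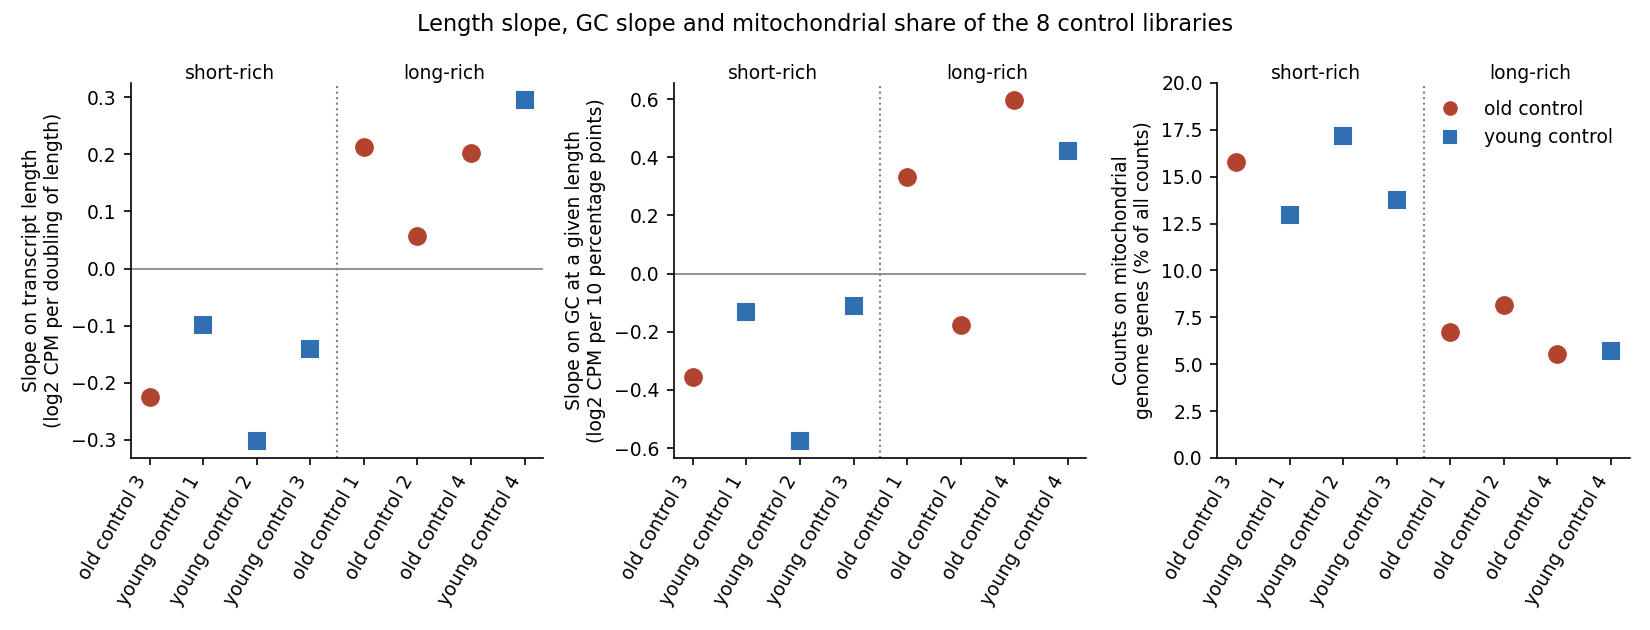
Slope on transcript length (log2 CPM per doubling of length), slope on GC at a given length (log2 CPM per 10 percentage points) and share of counts on mitochondrial genome genes (percent) in each of the 8 control libraries, 1 point per library, circles for old control and squares for young control, short-rich libraries left of the dotted line. Old control 2, at 0.06, 8.14% and a GC slope of −0.18, lies nearest the short-rich libraries in the long-rich set.

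Across genes, the difference between the sets was graded by transcript length. The set difference of a gene is short-rich minus long-rich in log2 CPM, taken within young and within old controls and then averaged, so that age is balanced. Of 16934 genes, 2449 (14.5%) lay higher in all 4 short-rich libraries than in any long-rich library, and 2298 (13.6%) lay lower. Because these libraries were sorted on such counts, those shares are given only as the level against which gene lists can be read. They depend on 1 library, since without old control 2 the counts were 3902 higher and 4281 lower. The median set difference of all genes was 0.02. From the shortest to the longest of the 5 groups the median set difference was 0.61, 0.20, −0.04, −0.27 and −0.67. With merged exon length in place of transcript length it was 0.54 in the shortest and −0.40 in the longest group. In the shortest group, of 57 to 1350 bases, 38.9% of genes lay higher without overlap and 1.77% lower, and in the longest group, of at least 4232 bases, 2.51% lay higher and 28.0% lower. More genes were over 2-fold lower than over 2-fold higher, 3175 (18.7%) against 910 (5.37%).

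**Figure D2:**
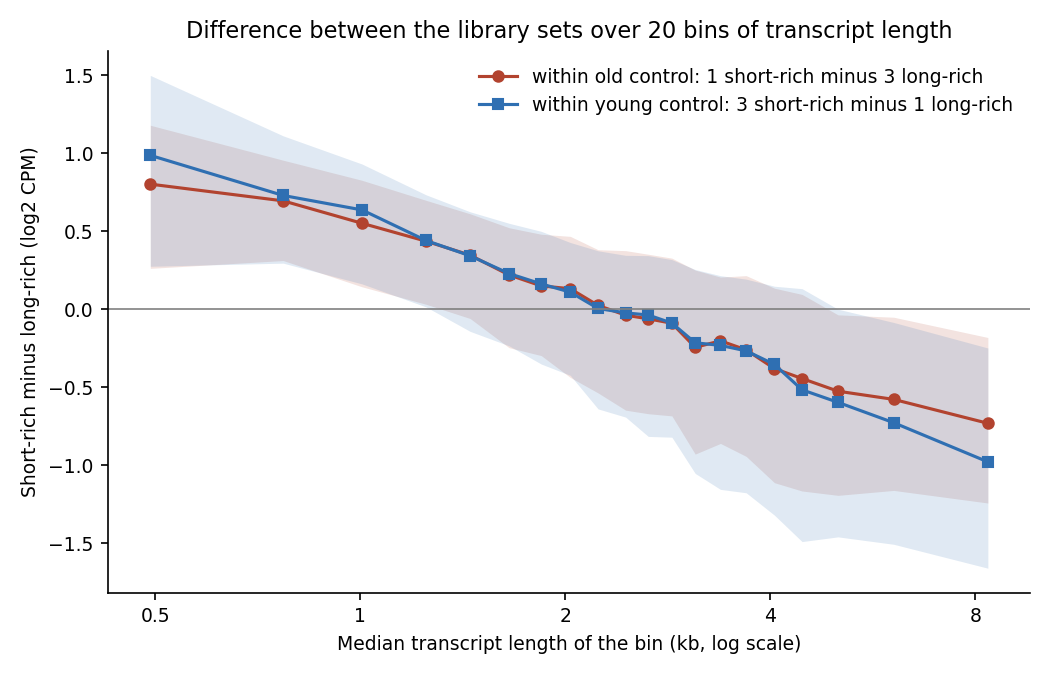
Short-rich minus long-rich difference in log2 CPM over 20 bins of genes by median transcript length (kb, log scale), within old control (circles) and within young control (squares). Lines join bin medians and bands run from the lower to the upper quartile of genes. Both lines fall from positive values in short genes to negative values in long ones.

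The set difference varied little with GC content among short transcripts and widely among long ones. In the shortest group of genes the median set difference was 0.63 in the part with least GC and 0.53 in the part with most. In the longest group it was 0.21 at a median GC of 41.1%, −0.65 at 48.6% and −1.59 at 56.7%. Of the 3382 genes in the longest group, 781 (23.1%) had a set difference above 0, with a median GC of 42.3%, against 50.4% in the others. Across 14570 protein-coding genes, Spearman's rho of the set difference was −0.53 with transcript length, −0.57 with coding length, −0.21 with the length of the 3′ untranslated region and −0.44 with GC. Relative to genes of like length, rho with GC was −0.65. These are correlations across genes, which are not independent replicates, and they share the same 8 libraries.

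The GC slope at a given length (per 10 percentage points) was −0.36, −0.13, −0.58 and −0.11 in the short-rich libraries, against 0.33, −0.18, 0.60 and 0.42 in the long-rich libraries. Old control 2 was long-rich by length but had a negative GC slope, below those of young controls 1 and 3. In the first principal component of the 8 libraries, which held 58.3% of the variance, it lay at −2.28, between −59.5 or lower for the other long-rich libraries and 17.6 or higher for the short-rich ones. The libraries spread along this component, with young control 2 (120.1) and old control 4 (−79.7) at its ends.

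**Figure D3:**
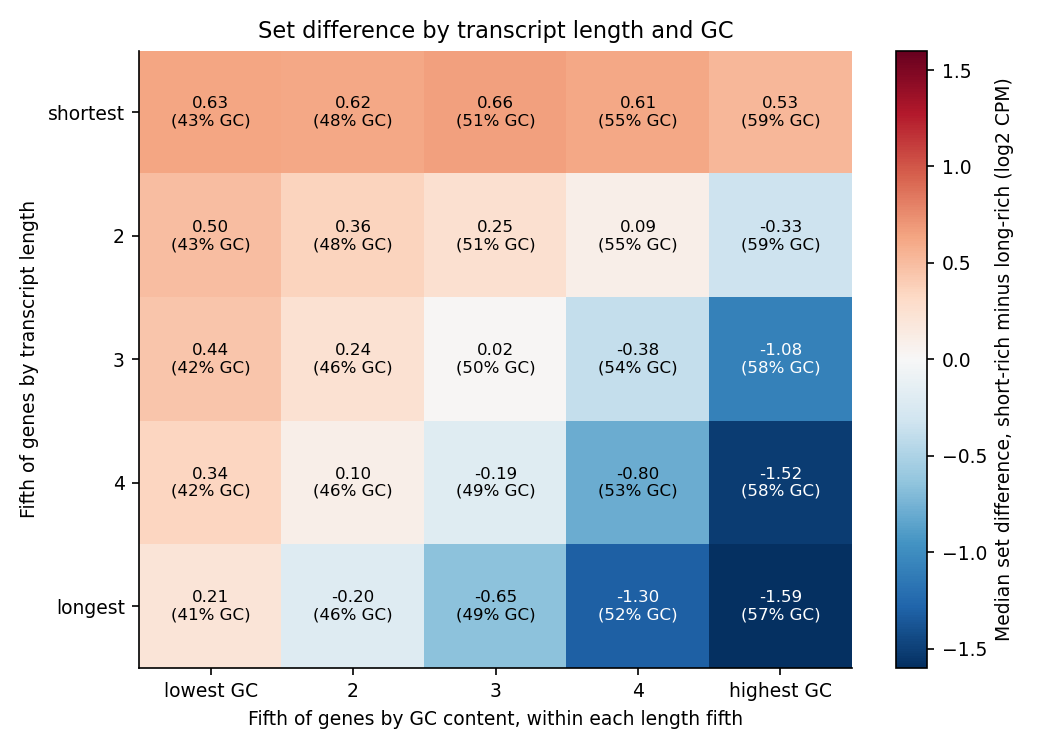
Median set difference (short-rich minus long-rich, log2 CPM, colour and number) in 25 groups of genes, by 5 groups of transcript length from top to bottom and 5 groups of GC content within each from left to right, with the median GC of each group in brackets. The top row stays between 0.53 and 0.66, and the bottom row runs from 0.21 to −1.59.

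The long transcripts printed above show the same contrast gene by gene. Sptan1, the brain alpha spectrin, has 7888 bases at 52.0% GC and had 139, 186, 65.3 and 168 CPM in the short-rich libraries, against 810.2, 455, 710.5 and 810.2 CPM in the long-rich libraries. Every short-rich library lay below every long-rich library, with a set difference of −2.44. B3galt2, at 9288 bases and 35.5% GC, lay on the other side with 78.3, 51.1, 67.9 and 51.4 CPM in the short-rich libraries, against 41.7, 43.4, 23.4 and 25.2 CPM in the long-rich libraries, without overlap and with a set difference of 1.16. Klc2, at 2907 bases and 59.7% GC, had 14.1, 23.1, 3.95 and 24.8 CPM in the short-rich libraries, against 78.6, 34.5, 82.1 and 80.8 CPM in the long-rich libraries, and its set difference of −2.35 was −2.28 relative to genes of like length. B3galt2 and Klc2 each overlap an annotated gene on the opposite strand, whose reads cannot be told apart from theirs.

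The difference within young controls and the difference within old controls share no library, and in each of them 1 side is a single library (young control 4, or old control 3). The libraries of both ages were sorted on the same relation to length, so likeness between the ages was built into the choice, and the values here describe it only. Their rho across 16934 genes was 0.80, with the same sign in 84.8% of genes. Taken relative to genes of like length it was 0.75, and relative to genes of like length and GC 0.58. Genes without overlap within both ages numbered 4705 higher (27.8%) and 4733 lower (27.9%).

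Mitochondrial genome transcripts had the largest positive set differences of the lists examined. All 13 mitochondrial protein genes and both mitochondrial ribosomal RNAs were higher without overlap, at medians of 1.93 and 1.88, against 14.5% of all genes. mt-Cytb, a subunit of complex III, had 30277, 19916, 30041 and 21109 CPM in the short-rich libraries, against 9346, 11842, 7253 and 7358 CPM in the long-rich libraries. Every short-rich library lay well above the long-rich range, and the set difference was 1.68. mt-Nd1 (complex I) had a set difference of 1.86 and mt-Co1 (complex IV) one of 1.10. The smallest was that of mt-Nd6 (0.41), the protein gene on the other strand, with 1266, 1319.8, 1314 and 1435 CPM in the short-rich libraries, against 1067, 922, 856 and 1028 CPM in the long-rich libraries. Relative to genes of like length, the median of the 13 was 1.36.

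The 3 largest of these differences belong to genes that share sequence with copies in the nuclear genome, and so are uncertain. mt-Atp6 (4.05), mt-Co2 (3.86), mt-Nd3 (3.10), and also mt-Co3 (2.20) and mt-Nd4l (2.06) share 97.99% to 100% of their stretches of 50 bases with nuclear transcripts on chromosome 1, so the counting could split or drop their reads. mt-Nd4 and mt-Co1 share 62.2% and 51.1% of their stretches, so the same limit holds for part of their length. mt-Atp6 had 606, 304, 469.7 and 673 CPM in the short-rich libraries, against 35.8, 50.02, 27.5 and 27.6 CPM in the long-rich libraries. Its copy Gm10925 had 265, 223, 273 and 123 CPM in the short-rich libraries, against 48.3, 57.9, 35.9 and 34.00 CPM in the long-rich libraries. The sum of both genes had a set difference of 3.42, against 4.05 for mt-Atp6 alone. mt-Co2 reached 1779.6 CPM in old control 3 and 430.0 CPM or less in the other short-rich libraries, so that its value depends on 1 library more than that of mt-Cytb does. mt-Atp8, with a set difference of 3.00 and no shared stretch, was at 10.4 CPM or less in every library.

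Transcripts for ribosomal proteins, which build the translation machinery, followed. Of 79 cytosolic ribosomal protein genes, 64 were higher without overlap and 0 lower, with a median of 1.13 and of 0.50 relative to genes of like length. Rps27 had 472, 459, 532 and 408 CPM in the short-rich libraries, against 161, 144, 165 and 103 CPM in the long-rich libraries. Every short-rich library lay far above the highest long-rich library, and the set difference was 1.88. Rpl38 (1.85), Rpl39 (1.81) and Rps29 (1.80) lay close to it, and the acidic stalk protein gene Rplp1 was at 1.40. The longer Rpl3 (1351 bases), a core protein of the large subunit, had 1590.3, 1079, 1209 and 1125 CPM in the short-rich libraries, against 1089.5, 1486, 1051 and 803 CPM in the long-rich libraries, with overlap, as old control 2 was higher than young controls 1, 2 and 3. Ribosomal protein genes have many processed copies in the genome, so single members are uncertain. Of 574 processed pseudogenes tested, 177 were higher and 11 lower, at a median of 0.63. Gm11808, a predicted protein-coding gene, was at 2.08. Rpl22l1, a paralogue of the ribosomal protein gene Rpl22, had 215, 174, 208 and 147 CPM in the short-rich libraries, against 59.6, 68.5, 60.8 and 35.3 CPM in the long-rich libraries and a set difference of 2.04. Rpl22l1 overlaps an annotated gene on the opposite strand, whose reads cannot be told apart from its own.

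Nuclear genes for mitochondrial proteins lay on the same side. Of 77 nuclear respiratory chain genes 65 were higher and 0 lower, at a median of 1.05, and of 77 mitochondrial ribosomal protein genes 62 were higher and 0 lower, at a median of 0.83. Ndufb4, an accessory subunit of complex I, had 202, 176, 285 and 218 CPM in the short-rich libraries, against 62.5, 73.9, 53.2 and 48.99 CPM in the long-rich libraries, without overlap and with a set difference of 1.93. Sdha, the longer transcript (2900 bases) of the catalytic subunit of complex II, had 830.1, 619.6, 728 and 564 CPM in the short-rich libraries, against 716, 837, 614 and 538 CPM in the long-rich libraries. Its ranges overlap, at 0.22, as do those of Atp5a1, the alpha subunit of ATP synthase, at 0.32.

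Other classes of small proteins were also on the positive side, where 14.5% of all genes were higher without overlap and 13.6% lower. Of 21 genes for small redox and metal-binding proteins 13 were higher and 0 lower, with Gpx4, which reduces lipid peroxides, at 0.78. Of 15 Sm and LSm genes, whose products coat spliceosomal RNAs, 11 were higher and 0 lower, with Snrpd2 at 1.26. Of 31 proteasome genes 9 were higher and 0 lower, at a median of 0.58, with Psmc5 at 0.62 and Psmd2, at 2961 bases, at −0.03, both with overlap. The G protein gamma subunit gene Gng13 had 26.6, 22.7, 45.5 and 32.8 CPM in the short-rich libraries, against 6.55, 6.05, 6.57 and 5.91 CPM in the long-rich libraries and a set difference of 2.24, the largest of the nuclear protein-coding genes with a mean of at least 10 CPM and no overlap. It overlaps a gene on the other strand, whose reads cannot be told apart from its own.

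Large cytoskeletal and motor proteins had the most negative median of the lists. Of 20 such genes 12 were lower without overlap and 0 higher, at a median of −1.79, of −1.03 relative to genes of like length, and of −0.54 relative to genes of like length and GC. Myh10, nonmuscle myosin IIB, had 38.6, 64.6, 16.4 and 67.03 CPM in the short-rich libraries, against 277, 119, 228 and 319 CPM in the long-rich libraries, with a set difference of −2.64. Young control 2 was lowest and old control 2 was the lowest of the long-rich libraries, as for Sptan1. The dynein heavy chain Dync1h1 had 40.1, 65.6, 13.9 and 59.3 CPM in the short-rich libraries, against 211, 59.9, 307 and 354 CPM in the long-rich libraries. Its difference was of similar size (−2.59), but young control 1 lay above old control 2. Map2, the dendritic microtubule protein, at 41.2% GC, was at −0.76 with overlap, and Kif1b, a kinesin of axonal transport, at −1.18 without.

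Among protein-coding genes with a mean of at least 10 CPM and no overlap, the most negative set differences belonged to long transcripts. Golgb1, the Golgi protein giantin, had 17.7, 23.5, 9.62 and 22.95 CPM in the short-rich libraries, against 146, 44.9, 163 and 158 CPM in the long-rich libraries, and its set difference was −2.86. Kif5a, a kinesin heavy chain of neurons, had 169.8, 263, 53.5 and 232 CPM in the short-rich libraries, against 1324, 611, 1298 and 1164 CPM in the long-rich libraries. Lamb2 (laminin beta 2, −2.73), Akap12 (a kinase anchoring protein, −2.73), Fyco1 (an autophagosome adaptor, −2.72), Kif1c (−2.71) and Pdcd11 (a ribosome assembly factor, −2.71) followed. In these genes and in Myh10 the lowest long-rich library was old control 2, still above all short-rich libraries. Relative to genes of like length the lowest, among genes with the same minimum CPM and no overlap in either age, were Shc3 (−2.73), Cmip (−2.55), Flywch1 (−2.50), Lrrc47 (−2.30) and Klc2 (−2.28), all with 56.9% to 59.7% GC. Golgb1, Fyco1, Pdcd11, Flywch1 and Lrrc47 overlap annotated genes on the opposite strand. At the other end, A2ml1, an alpha-2-macroglobulin relative of 4695 bases, was 2.23 above genes of like length and had 22.1, 13.8, 21.6 and 14.3 CPM in the short-rich libraries, against 8.51, 8.52, 6.42 and 4.30 CPM in the long-rich libraries.

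**Figure D4:**
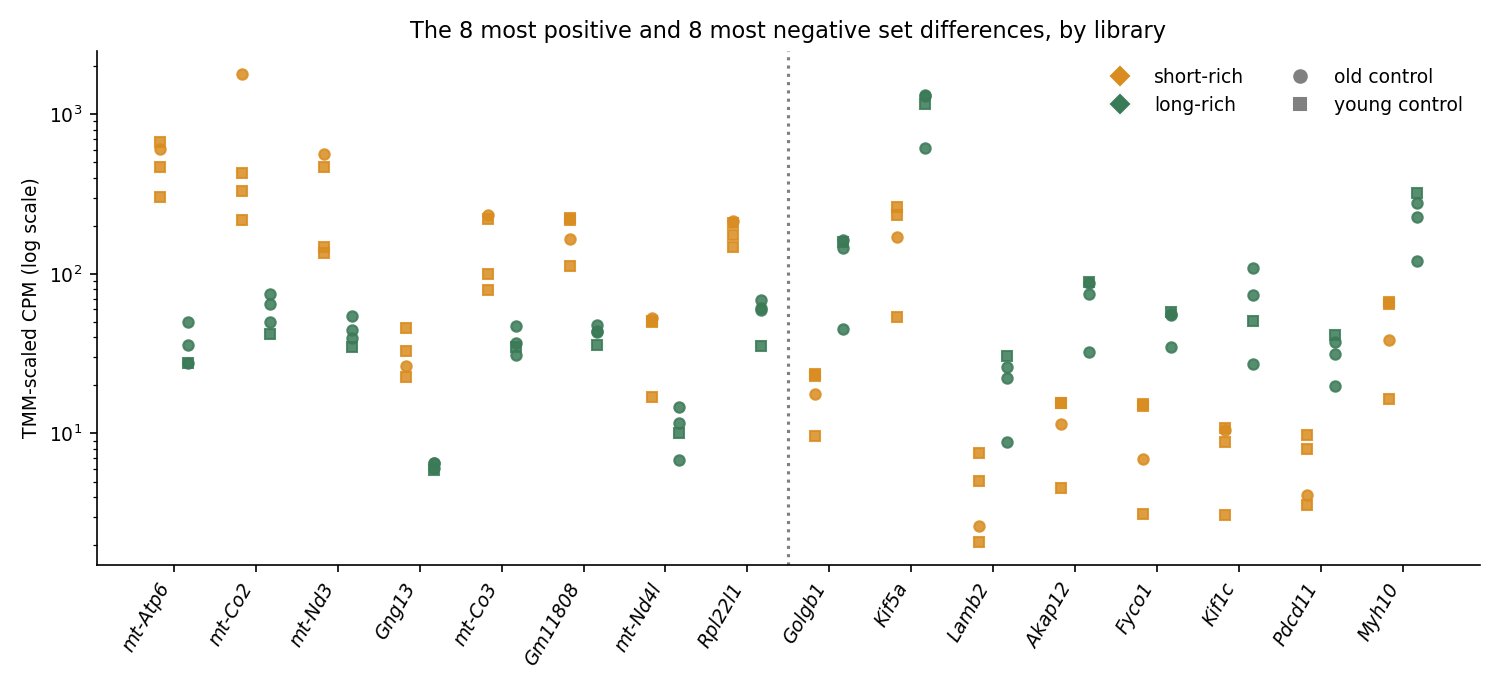
TMM-scaled CPM (log scale) in each of the 8 libraries for the 8 protein-coding genes with the largest and the 8 with the smallest set difference, among those with a mean of at least 10 CPM and no overlap, with short-rich libraries left and long-rich libraries right for each gene, circles for old control and squares for young control. Gng13, for example, lies at 22.7 to 45.5 CPM in the short-rich libraries and at 5.91 to 6.57 CPM in the long-rich libraries.

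Lists of chromatin and RNA processing genes with long transcripts had negative medians. Over all genes, 13.6% were lower and 14.5% higher without overlap. Of 34 chromatin remodelling genes 12 were lower and 0 higher, at a median of −1.18. Chd8, a chromodomain remodeller, had 19.4, 31.1, 9.43 and 29.7 CPM in the short-rich libraries, against 86.6, 43.2, 92.4 and 111 CPM in the long-rich libraries, and its set difference was −2.14. Atrx, a remodeller with 37.9% GC, had 150.1, 160.4, 158 and 158 CPM in the short-rich libraries, against 187, 196, 132 and 172 CPM in the long-rich libraries and was at −0.15, with overlap. Of 15 genes for large spliceosome proteins 6 were lower and 1 higher, at a median of −0.94. Prpf8, the largest core protein, was at −1.29, while Sf3b1 was at 0.04 with overlap and Dhx15 at 0.45. Of 13 giant ubiquitin ligases 6 were lower and 0 higher, at a median of −1.20, with Mycbp2 at −1.85 and Ubr3, with overlap, at −0.20.

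Genes of the synapse were divided. Their counts without overlap stand against 13.6% lower and 14.5% higher over all genes. Of 31 voltage-gated channel genes 7 were lower and 0 higher, at a median of −0.95. The sodium channel genes Scn1a and Scn3a were at 0.14 and 0.04, and Scn8a at −1.58, all with overlap. Scn8a had 20.4, 36.04, 12.6 and 26.6 CPM in the short-rich libraries, against 58.3, 29.02, 62.4 and 88.9 CPM in the long-rich libraries, and old control 2 lay among the short-rich libraries. Of 22 synaptic scaffold genes 6 were lower and 0 higher, at a median of −1.06, with Dlg2 at 0.17 with overlap. Dlg2 spans several genes on the opposite strand. Of 16 synaptic vesicle genes 4 were lower and 1 higher, at a median of −0.45, with Snap25, a fusion protein, at 0.42 and Syt1, the calcium sensor, at −0.19, both with overlap.

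Receptor subunits had set differences of either sign. For GABA and glutamate receptors, the fast inhibitory and excitatory receptors and their slower relatives, 2 of 29 genes were higher and 5 lower, and the median was −0.07. Grin1, the obligatory NMDA receptor subunit, had 16.4, 22.4, 3.88 and 19.5 CPM in the short-rich libraries, against 82.8, 30.1, 107 and 91.6 CPM in the long-rich libraries, and its difference was −2.45. Gabbr2 was at −1.94, Gabbr1 at −0.45, Gria1 at −0.58 and Gria2, with overlap, at 0.17. The clustered protocadherins, adhesion proteins that give neurons their surface identity, split by cluster in the same manner, a split made after the values were seen. The median was −1.30 over 21 gamma genes at a median GC of 53.0%, −0.26 over 12 alpha genes at 47.6% and 0.19 over 21 beta genes at 46.3%. Median transcript lengths of gamma, alpha and beta genes were 4687, 5336 and 3718 bases. In all, 10 of the 54 were lower and 0 higher. Over all genes, 13.6% were lower without overlap and 14.5% higher.

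Neuropeptide precursors, the signals most typical of the hypothalamus, are short and lay on the positive side. Of 27 genes 11 were higher and 0 lower, at a median of 0.86 and of 0.34 relative to genes of like length. Over all genes, 14.5% were higher without overlap and 13.6% lower. Hcrt, the orexin precursor, had 236, 315, 298 and 211 CPM in the short-rich libraries, against 55.9, 91.5, 89.9 and 149 CPM in the long-rich libraries, and its set difference was 1.23. Pmch, the precursor of melanin-concentrating hormone, was at 1.19, and Sst, somatostatin, had 247, 253, 304 and 278 CPM in the short-rich libraries, against 111, 120.4, 139 and 132 CPM in the long-rich libraries. Agrp, which stimulates feeding, had 16.5, 34.1, 39.4 and 40.8 CPM in the short-rich libraries, against 11.99, 7.81, 22.3 and 21.3 CPM in the long-rich libraries, with overlap and a difference of 0.60. Pomc, the precursor of an opposing signal, was at −0.02, and Npy at 0.99, both with overlap. Oxt (oxytocin) and Avp (vasopressin) differed by −0.18 and −0.32 within old controls and by 1.40 and 0.80 within young controls. The receptors of energy balance, which have longer transcripts, had a median of −0.02 over 22 genes. Of these receptors 4 were higher and 1 lower, to be read against the same shares over all genes. Among them the type 2 orexin receptor Hcrtr2 was at 0.59, the leptin receptor Lepr at 0.45 and the GLP-1 receptor Glp1r at −1.56, where Lepr and Glp1r overlap between the sets.

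Transcripts made in response to activity and stress were mixed. Of 19 immediate early genes 3 were lower and 0 higher, at a median of −1.19 and of −0.31 relative to genes of like length and GC. The shares over all genes were 13.6% lower and 14.5% higher. Junb, a part of the AP-1 transcription factor, had 2.48, 5.69, 1.91 and 5.08 CPM in the short-rich libraries, against 18.1, 5.83, 10.7 and 15.3 CPM in the long-rich libraries, without overlap. Fos was at −0.87, with overlap. Of 15 heat shock genes 3 were higher and 1 lower, with the small mitochondrial co-chaperone Hspe1 at 1.06, Hspa8 at 0.30 with overlap and Hspa4 at −0.44. Among 9 nuclear long noncoding RNAs 1 was higher and 0 lower, at a median of −0.94. Meg3 had 133, 424, 128 and 388 CPM in the short-rich libraries, against 713, 182, 1125 and 1214 CPM in the long-rich libraries, where old control 2 lay among the short-rich libraries, and its set difference was −2.06. Of 9 snoRNA host genes 4 were higher and 1 lower, with the elongation factor gene Eef2 at −0.70 and Gas5, with overlap, at 0.65.

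**Figure D5:**
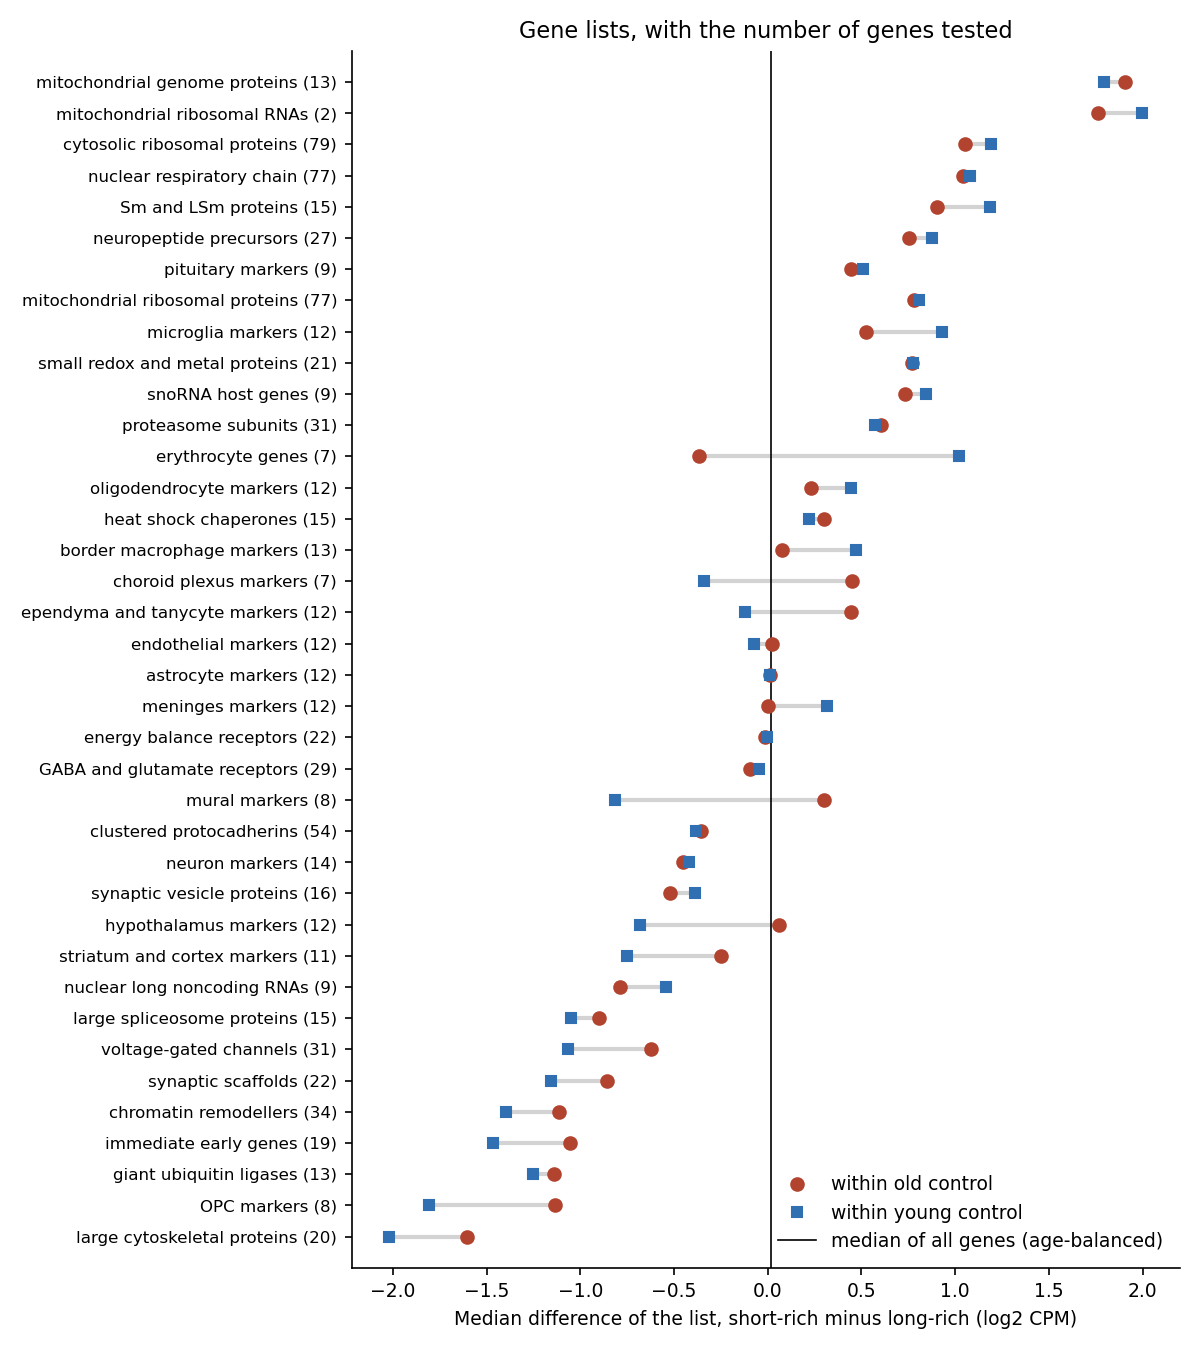
Median short-rich minus long-rich difference (log2 CPM) of each of the 38 gene lists, within old control (circles) and within young control (squares), with the number of genes tested in brackets and the age-balanced median of all genes as a line. Lists run from mitochondrial genome proteins at the top to large cytoskeletal proteins at the bottom, and the erythrocyte, mural, endothelial, meninges, choroid plexus, ependyma and hypothalamus lists differ in sign between the ages.

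The tissue label was checked on hypothalamic transcription factor genes, and markers of each cell type were examined for their level. Isl1 (27.2 to 49.4 CPM), Fezf1 (20.6 to 36.6 CPM) and Sim1 (19.9 to 28.9 CPM) were present in all 8 libraries. Nkx2-1 (3.02 to 23.6 CPM) and Otp (1.97 to 18.6 CPM) were present at lower levels and with overlap between the sets. In 10 of 15 cell type lists, members lay more than 0.5 from 0 in both directions. All 8 markers of oligodendrocyte precursors were negative, at −2.30 to −0.18. The part of cell composition in these values was not tested. In bulk tissue, fewer cells of a type and less RNA per cell cannot be told apart.

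Markers of 1 cell type differed from each other by several fold. For astrocytes, 2 of 12 were higher and 4 lower, where 14.5% of all genes were higher and 13.6% lower. Gfap, the intermediate filament of astrocytes, had 97.1, 76.9, 32.1 and 79.5 CPM in the short-rich libraries, against 359.7, 353, 648 and 248 CPM in the long-rich libraries, and its set difference was −2.13. Gjb6, a gap junction protein, had 183, 145, 178 and 201 CPM in the short-rich libraries, against 98.4, 129, 113 and 111 CPM in the long-rich libraries and one of 0.67. The glutamate transporter genes Slc1a2 and Slc1a3 were at −0.90 and 0.39, the second with overlap. For neurons 3 of 14 were higher and 1 lower, with Uchl1 at 0.56, Elavl4 at 0.54, Nefl at −0.97 and, with overlap, Elavl3 at −1.86. For oligodendrocytes 2 of 12 were higher and 1 lower, with the myelin genes Mog at 0.72, Mbp at 0.11 with overlap and Mag at −0.94. For oligodendrocyte precursors 2 of 8 were lower and 0 higher, with Bcan at −2.30 and Pdgfra, with overlap, at −0.18. For microglia 3 of 12 were lower and 0 higher, although the median was 0.78. The receptor gene Csf1r had 54.2, 54.1, 33.2 and 45.2 CPM in the short-rich libraries, against 123, 109, 123 and 96.6 CPM in the long-rich libraries, and its set difference was −1.14, while P2ry12, with overlap, was at 1.16.

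Counts of vessel, border and blood genes without overlap are given against 14.5% higher and 13.6% lower over all genes. Some of these markers had few counts, such as the choroid plexus marker Ttr at 0.85 to 3.64 CPM. Of 12 endothelial markers 0 were higher and 0 lower, of 8 mural markers 1 was higher (Rgs5, 0.68) and 0 lower, and of 7 choroid plexus markers 0 were either. Of 12 ependyma and tanycyte markers 1 was higher and 3 lower, and of 13 border macrophage markers 1 was higher and 0 lower. Of 12 meninges markers 2 were higher and 0 lower, with Ptgds, which encodes prostaglandin D synthase, at 1091, 913, 1847 and 4038 CPM in the short-rich libraries, against 546, 443, 569.6 and 635 CPM in the long-rich libraries. Young control 3 stands far above the others. The pituitary hormone gene Gh had 240.2, 89.4, 40.4 and 16.9 CPM in the short-rich libraries, against 8.96, 639, 42.4 and 27.6 CPM in the long-rich libraries, highest in old control 2, and 0 of 9 pituitary markers lay without overlap. Erythrocyte genes summed to 1140.5, 263.7, 385.2 and 594.7 CPM in the short-rich libraries, against 1068.6, 1244.7, 1989.0 and 192.5 CPM in the long-rich libraries. The part of these tissues in the results was not tested. Of 12 hypothalamus markers 0 were higher and 1 lower (Nr5a1, −1.53), and of 11 striatum and cortex markers 1 was higher and 2 lower.

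The other 12 libraries of the series can be placed on the same axis. The Spearman correlation across 16934 genes of a library's deviation from the mean of those 12 with the set difference was 0.64 to 0.69 in the 4 acute Gly-Low libraries. It was 0.11 in acute control 1 and −0.69 to −0.46 in the other acute controls, and −0.77, −0.27 and −0.45 in the old Gly-Low libraries. Acute control 1 combined a length slope of 0.16 with a GC slope of −0.36, so that length and GC pointed opposite ways there as in old control 2. These values describe single libraries, and acute diet and library make-up cannot be told apart in them.

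Age was not used to choose the sets, so old control could be tested against young control. Old control mice had also been on the control diet for longer than young control mice, so age and time on this diet cannot be told apart. Differences with age, here and below, are differences between old control and young control, and may belong to either. None of 6 library measures passed. The length slope averaged 0.06 ± 0.20 in old control and −0.06 ± 0.25 in young control (SD, n = 4 each; two-sided exact permutation test, p = 0.514, adjusted p = 0.571 over the 6 measures). The mitochondrial share averaged 9.03% ± 4.61 in old control and 12.4% ± 4.81 in young control (exact p = 0.371, adjusted p = 0.571). Raw p of the other 4 lay between 0.400 and 0.571, and the smallest p possible with 4 against 4 is 0.0286.

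With edgeR's quasi-likelihood test and Benjamini-Hochberg adjustment, 0 of 16934 genes passed for age (0% in each direction), while 1196 had an unadjusted p under 0.05. The DESeq2 Wald test called 253, of which 130 were higher (0.768%) and 123 lower (0.726%). With the library set as a term, edgeR called 8, of which 7 were higher (0.0413%) and 1 lower (0.00591%). A term for each library's length slope gave 329 calls, of which 151 were higher (0.892%) and 178 lower (1.05%), and all 8 were among them. Library set and length slope were both derived from the counts under test. Calls and p-values with either term therefore depend on a choice made on these data. Over 11 libraries, with old Gly-Low included, edgeR called 6 of 18281, all higher (0.0328%). Across the 5 groups of length the median age difference without a term was −0.19, −0.02, 0.04, 0.10 and 0.12 from short to long genes. With the set term it was 0.13, 0.08, −0.00049, −0.05 and −0.14, and with the slope term it lay between −0.01 and 0.03. The direction of the age difference in short and in long transcripts thus depended on how the axis entered the model.

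The 7 genes higher with age under the set term, a term drawn from these same counts, include genes of microglia and of antigen presentation. Of 12 microglia markers, 0 passed without a term, 2 passed with the set term and 9 with the slope term, all higher, at median log2 fold changes of 0.71, 1.02 and 0.90. Over all genes, 0% were higher without a term, 0.0413% with the set term and 0.892% with the slope term. Both terms were drawn from the counts under test. Mpeg1, a pore-forming protein of macrophages, had 95.5, 122, 114 and 88.2 CPM in old controls 1 to 4, against 28.2, 38.2, 27.7 and 25.7 CPM in young controls 1 to 4. The ages do not overlap, and the log2 fold change without a term was 1.81 ± 0.19 (SE; edgeR adjusted p = 0.0634). With the set term it was 1.93 (adjusted p = 0.0179). Ctss, a lysosomal protease, had 181, 268, 307 and 185 CPM in old controls 1 to 4, against 87.2, 104, 94.7 and 53.7 CPM in young controls 1 to 4, and a log2 fold change of 1.47 without the term (edgeR adjusted p = 0.208) and 1.83 with it (adjusted p = 0.0179). Young control 4, the long-rich young library, was lowest and old control 3, the short-rich old library, highest. Trem2, a lipid receptor of microglia, was at 1.73 with the term (edgeR adjusted p = 0.0207), C1qb, of the complement system, at 1.29 (adjusted p = 0.0263), and H2-K1 and B2m, which form MHC class I, at 1.07 and 1.30 (adjusted p = 0.0475 each). Without the term, Trem2, C1qb, H2-K1 and B2m were at 1.44, 0.86, 1.00 and 0.84, with edgeR adjusted p of 0.171, 0.533, 0.170 and 0.626. The cold-induced RNA-binding gene Rbm3 had 68.3, 92.4, 147 and 107 CPM in old controls 1 to 4, against 64.9, 45.4, 48.7 and 27.00 CPM in young controls 1 to 4 (edgeR adjusted p = 0.0475 with the term and 0.392 without it). The lysine methyltransferase gene Setd7, the 1 gene lower with age under the set term, had 72.7, 68.5, 44.1 and 61.7 CPM in old controls 1 to 4, against 83.8, 78.5, 89.04 and 129 CPM in young controls 1 to 4, with a log2 fold change of −0.93 under the set term (edgeR adjusted p = 0.0475). Its log2 fold change without the term was −0.62 (edgeR adjusted p = 0.587). These 8 genes also differed between the sets to unequal degrees. The set difference was 0.23 for Mpeg1 and 0.14 for H2-K1, and it was 0.69 for Ctss, 0.53 for Trem2, 0.83 for C1qb, 0.94 for B2m, 0.85 for Rbm3 and −0.62 for Setd7. For C1qb it was about as large as the log2 fold change with age without a term (0.86), and for B2m it was larger than that fold change (0.84).

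Without a term, Mpeg1 had the smallest edgeR adjusted p. The next 2 higher genes by p were H2-Q6 and H2-K1, both of MHC class I and both at an edgeR adjusted p of 0.170. H2-K1 had 81.6, 92.4, 94.1 and 89.7 CPM in old controls 1 to 4, against 44.03, 52.1, 41.9 and 40.5 CPM in young controls 1 to 4, and the ages do not overlap. H2-Q6 has close paralogues among which reads can be split, so its log2 fold change of 2.95 ± 0.40 (SE) is uncertain. The noncoding C230004F18Rik, the first of the lower genes, had 94.6, 98.9, 103 and 89.8 CPM in old controls 1 to 4, against 173, 192, 166 and 166 CPM in young controls 1 to 4, with a log2 fold change of −0.85 ± 0.12 (SE; edgeR adjusted p = 0.170). Gm33869 (−1.35 ± 0.22) and Gm26945 (−2.51 ± 0.40) had edgeR adjusted p-values of 0.171 each.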

How the data were processed

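The authors deposited whole-number read counts for each gene, not normalized. Per the submitters' processing notes, HISAT2 2.0.5, featureCounts 1.5.0-p3, DESeq2 1.20.0 and build GRCm38 were used by the authors, without saying how. Which annotation release was counted, and whether strand was used, is not given in the sources used here. Of 54532 genes, 54495 matched the GENCODE M21 annotation, which gave symbols, the median length of basic transcripts, GC content and coding sequence.

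Total counts of the 8 libraries ran from 15848372 to 27399753. Genes were filtered by age group with filterByExpr, libraries were scaled with TMM, and CPM are counts relative to that scaled size. Set differences used log2 CPM with a prior count of 2. Departures from length used 40 bins, and those from length and GC used 20 length bins with 10 GC bins in each. The slope used genes with a mean of at least 1 CPM, as log2 of CPM plus 0.5. A gene was counted as higher or lower where the 4 and 4 libraries do not overlap. Age was tested with edgeR 4.0.16 in R 4.3.3 (quasi-likelihood F test, threshold 0.05), and library measures by exact permutation. Alternatives were DESeq2 1.42.0, its size factors, upper-quartile factors, other filters, prior counts and length measures, 11 libraries of the ageing arm, added terms and leaving out each library. Fits within each set were chosen after seeing the data.

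The members and the 38 gene lists were chosen with earlier results of these data known. Named genes are the 8 protein-coding genes at either end of the set difference without overlap (mean of at least 10 CPM), the 5 at either end relative to length, the 3 most abundant of each list, and for age the 8 with the smallest p in each direction, or 3 where fewer than 3 passed. Some genes that the rule names are not reported here. Other list members named, including Gfap, Grin1, Csf1r and Ndufb4, were chosen after their values were seen. In a test on simulated counts of the age comparison over 16624 genes, 69% of 4-fold and 4% of 2-fold changes were recovered, with 8.75% false calls. Mapping of the counts to samples used column names, and 0 columns were left unused.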

Additional observations from a re-analysis of the deposited data

Results flagged for a closer look

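Within each age group of 4, a library was marked where its gap to the nearest other exceeded the 95% limit of Dixon's ratio. Of 360 groups of values, 30 (8.33%) were marked, and chance marks about 1 in 20. In 25 of them the marked library was the only one of its set in that age, 15 for old control 3 and 10 for young control 4, so they restate the way the sets were chosen.

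Old control 3 was high for Sm and LSm genes as a sum (837.3 CPM), mt-Atp6 (606.0), mt-Co2 (1779.6), mt-Nd3 (563.0), Gng13 (26.6), mt-Co3 (232.4) and Gm11808 (164.7). It was also high for mt-Nd4l (53.0), Rpl22l1 (215.5), mt-Nd1 (24377), Rplp1 (1463.7), Snrpd2 (116.7), Uchl1 (891.7), Aldoc (1948.8) and A2ml1 (22.1 CPM).

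Young control 4 was high for Golgb1 (158.1), Akap12 (88.5), Kif1c (50.6), Pdcd11 (41.3), Myh10 (319.1), Sptan1 (810.2) and Shc3 (23.5 CPM). It was low for Mrpl41 (53.3), Psmb1 (153.7) and Uchl1 (650.9 CPM).

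The other 5 do not follow the sets. Old control 4 was low for Scn1a (165.7 CPM, others 228.1 to 239.4) and high for the haemoglobin gene Hba-a1 (669.9 CPM, others 310.1 to 345.6). Young control 2 was high for Sf3b1 (379.5 CPM, others 320.5 to 329.3). Young control 3 was high for Pcdhb9 (18.8 CPM, others 13.9 to 14.2) and for the antigen presentation gene H2-Aa (15.02 CPM, others 1.98 to 4.19).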

How the results depend on the processing

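The count of age calls, 0 with edgeR, was 1 with DESeq2 size factors in edgeR, 1 with no filter, 6 over 11 libraries, 8 with the set term, 329 with the slope term and 253 with the DESeq2 Wald test, and 0 to 0 when leaving out each library. It was 0 within the short-rich and 0 within the long-rich libraries, where 1 age has 1 library, assumed to vary like the other age. The cause of these differences was not tested. With the replicate number as a block, 0 genes were called. Libraries of the same number correlated by −0.06, 0.32, 0.11 and 0.67 in their deviations, so the numbers were not taken to pair old and young libraries. Genes without overlap numbered 2543 to 3902 higher and 2365 to 4281 lower when leaving out each library, the highest in each case without old control 2. The median of the longest group of genes was −0.40 with merged exon length, against −0.67, the cause was not tested, and −0.72 to −0.58 when leaving out each library, and that of the shortest group was 0.59 to 0.64. Lists at least 0.5 above the median of all genes numbered 12 (11 to 13 when leaving out each library), and 10 lay as far below (10 to 12). Age differences kept their sign when leaving out each library, at 0.04 to 0.24 for the length slope, 0.03 to 0.37 for the GC slope, −5.60 to −1.77 points for the mitochondrial share, −0.79 to −0.11 for ribosomal protein genes, −0.36 to −0.09 for the nuclear respiratory chain and −5.24 to −1.47 for the 10 most abundant genes. Of 418 recomputed list medians 404 moved by less than the spread between libraries and 14 by more, and 0 reversed. The 23 genes named at the ends of the set difference kept direction and lack of overlap in 230 of 230 recomputations. Leaving out a library cannot create overlap in genes chosen for its absence. Only the recomputations with other scalings could therefore have changed this. Under the scalings, higher calls made up 51.6%, 48.6% and 53.8% of all calls (TMM, DESeq2 size factors and upper quartile). Each within-age difference has a single library on 1 side.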
